A study of Mus musculus with 16 samples.

Results

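Neuronal immediate early genes are the genes that neurons switch on within minutes of strong synaptic activity, without first making a protein. The 10 described here were taken by name: each is the row of the deposited count table whose Ensembl identifier carries the symbol Fos, Fosb, Junb, Egr1, Egr2, Npas4, Nr4a1, Arc, Ier2 or Dusp1 in the GENCODE M21 annotation. The table listed 19449 genes, of which 16269 held enough counts to be tested, and all 10 members were among the 16269.

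Total RNA was sequenced from the mouse hippocampus at 3 months of age, in 16 libraries. There were 4 groups of 4 libraries: mice lacking Tspo (genotype label TSPOKO) injected with LPS, the same genotype injected with PBS, wild-type mice injected with LPS and wild-type mice injected with PBS. Tspo encodes the translocator protein of the outer mitochondrial membrane, LPS (lipopolysaccharide) is a component of bacterial cell walls that sets off inflammation, and PBS is the saline vehicle. The labels give no dose, no route and no time between injection and collection, no line or method for the Tspo deletion, and no word on whether replicates are separate animals. Each p-value given here therefore reflects how far these libraries spread, which may be technical.

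Library totals ran from 30198619 to 50009041 counts. Tspo, the deleted gene, stood at 0.152 to 0.486 CPM (the CPM unit divides a gene's count by its library's total, here with TMM factors between libraries) in 7 of the 8 knockout libraries, but at 2.33 CPM in the library labelled knockout PBS replicate 1, against 2.06 to 11.9 CPM in the 8 wild-type libraries. Lcn2, an acute-phase gene that LPS raises strongly in brain, stood at 209 to 238 CPM in wild-type LPS replicates 2 to 4 and at 0.641 CPM in wild-type LPS replicate 1. In the remaining 12 libraries, knockout LPS included, Lcn2 was at most 0.302 CPM. The score of 6 choroid plexus markers, all of which were tested, a mean log2 CPM set against the wild-type PBS mean, was -4.13 in wild-type LPS replicate 1 and -4.32 in wild-type PBS replicate 1, and between -0.14 and 2.64 elsewhere. The score of thalamic and cerebellar markers was 2.68 in knockout PBS replicate 2. All 6 markers of pyramidal cells and all 6 of dentate granule cells, the principal neurons of the hippocampus, passed the filter on low counts. The sample titles carry codes of unstated meaning, of which none is shared between knockout LPS and knockout PBS, or between the genotypes under either injection, so code and group cannot be told apart there. In wild type, only LPS replicate 1 and PBS replicate 4 share a code across injections, so code and injection can hardly be told apart either. Wild-type LPS replicates 2 to 4 carry the code of knockout PBS replicate 4.

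Immediate early genes are held ready for fast transcription. Calcium entering through NMDA receptors and voltage-gated channels activates kinases, which phosphorylate CREB bound to cAMP response elements (CREs) and the ternary complex of SRF and Elk-type factors bound to CArG boxes. The transcripts appear quickly and decay quickly, and in the hippocampus Fos, Arc and Egr1 are widely used as marks of recently active cells. Fos, FosB and JunB join in pairs as AP-1 transcription factors, Egr1 and Egr2 are zinc-finger factors, Npas4 is a neuron-enriched factor that adjusts inhibitory synapses, and Nr4a1 is an orphan nuclear receptor. Arc acts at synapses, where it promotes removal of AMPA receptors, Ier2 is a small nuclear protein, and Dusp1 is a phosphatase that switches off MAP kinases. Several of them, Junb, Ier2 and Dusp1 among them, also answer to growth factors, cytokines or stress in glia and blood vessels, so their RNA in whole tissue need not come from neurons.

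The sequence just upstream of the start of 7 members was held in the RefSeq-derived table of promoters for GRCm38.p6, and no window was matched for Arc, Egr1 or Ier2. The 5 stretches that follow are shown because they carry the control elements named above in the genes on which the results turn: Junb, the member that passed the test, Egr2, the member with the widest range, and Fos, Dusp1 and Npas4. Each is written 5′ to 3′ along the gene's own strand, and capitals mark CRE cores (TGACG, on either strand) and CArG boxes. Bases of a Dusp1 window that lie in an annotated GENCODE exon were left out, and for Npas4, whose whole window lies in such an exon, only the bases around its CRE cores are shown. The Junb stretch is chr8:84978749-84978998 on the minus strand, the Fos stretch chr12:85473640-85473889 on the plus strand, the Dusp1 stretch chr17:26508520-26508722 on the minus strand, the Egr2 stretch chr10:67537619-67537868 on the plus strand (the third of the 5 windows listed for that gene, which has several annotated starts) and the Npas4 stretch chr19:4990132-4990154 on the minus strand.
Junb: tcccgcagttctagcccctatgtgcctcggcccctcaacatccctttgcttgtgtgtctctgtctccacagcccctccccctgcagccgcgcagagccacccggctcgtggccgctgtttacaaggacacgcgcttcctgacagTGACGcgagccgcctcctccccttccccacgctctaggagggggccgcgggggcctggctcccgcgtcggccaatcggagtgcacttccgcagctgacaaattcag
Fos: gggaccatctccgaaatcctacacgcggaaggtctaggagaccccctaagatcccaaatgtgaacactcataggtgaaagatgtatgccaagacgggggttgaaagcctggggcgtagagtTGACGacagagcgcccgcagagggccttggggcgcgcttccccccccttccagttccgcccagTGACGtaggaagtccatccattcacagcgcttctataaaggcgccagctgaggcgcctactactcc
Dusp1: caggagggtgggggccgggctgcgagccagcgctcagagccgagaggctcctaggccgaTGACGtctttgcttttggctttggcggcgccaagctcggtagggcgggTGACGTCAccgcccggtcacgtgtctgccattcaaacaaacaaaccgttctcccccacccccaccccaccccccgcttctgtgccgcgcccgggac
Egr2: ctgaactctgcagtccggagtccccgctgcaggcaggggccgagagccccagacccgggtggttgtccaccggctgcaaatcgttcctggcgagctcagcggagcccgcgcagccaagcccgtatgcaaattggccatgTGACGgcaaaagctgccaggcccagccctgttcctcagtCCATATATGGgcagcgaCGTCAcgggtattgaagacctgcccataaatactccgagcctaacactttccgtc
Npas4: tcgaCGTCAcgggaTGACGtcgg

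A CRE core stood within 250 bases upstream of a listed start in 7 of 7 members with a window, beside 19.8% of the 27025 genes in the table (17.8% of its 32851 windows). Junb held 1 core, from base -106 to -102, Fosb held 1, Fos 2, Npas4 2, Egr2 2 in the window printed, Dusp1 3 and Nr4a1 4. The full palindrome TGACGTCA, which contains 2 overlapping cores, was found in 1 member, Dusp1, beside 1.77% of genes. A CArG box was found in 1 member, Egr2, beside 1.62% of genes. An NF-kappaB site was found in 4 members (Fos, Fosb, Npas4 and another of the Egr2 windows; 8.23% of genes) and an E-box CACGTG in Dusp1 and the same other Egr2 window (6.86% of genes). No STAT site TTCNNNGAA was found in the 7 members (8.13% of genes). Both strands were searched for each motif, a match is a description of the letters and not a bound site, and the window does not reach elements that lie farther upstream.

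**Figure D1:**
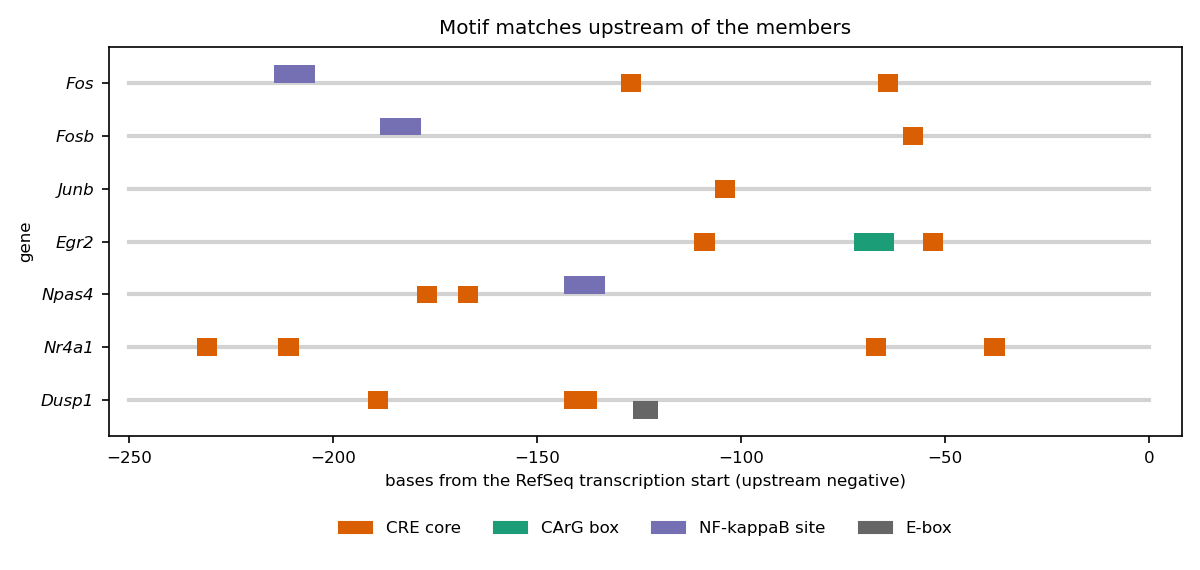
Matches to 4 motifs in the 250 bases upstream of the RefSeq start of the 7 members with a window, 1 row per gene (for Egr2, the window printed), with distance from the start in bases on the horizontal axis. Every row carries at least 1 CRE core, and the CArG box is in the Egr2 row.

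Levels were compared between genes per kilobase of annotated exon, as means over the 16 libraries. Arc was highest at 64.6 CPM per kb, followed by Egr1 at 59.6, Junb at 32.1, Nr4a1 at 25.5 and Fos at 12.1 CPM per kb. Dusp1 stood at 8.68, Npas4 at 6.52, Ier2 at 5.92, Fosb at 2.86 and Egr2 at 2.09 CPM per kb. The order of neighbours held in most libraries: Nr4a1 was above Fos in 16 of 16, Egr1 above Junb in 15 and Arc above Egr1 in 12. Npas4 was above Ier2 in only 9 of 16 libraries, so these neighbours did not differ beyond their spread. Between the highest and the lowest library, Egr2 differed 10.96-fold, Npas4 10.7-fold and Fos 5.94-fold, while Junb, the narrowest, differed 3.09-fold.

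The position of each gene is that of GENCODE M21 on GRCm38. Fos (ENSMUSG00000021250, chr12:85473890-85477273), the archetype of the group and the partner of Jun proteins in AP-1, stood at 12.9, 21.5, 17.5 and 52.1 CPM in knockout LPS replicates 1 to 4 and at 11.46, 16.5, 14.1 and 21.7 CPM in knockout PBS. It stood at 68.1, 31.1, 43.6 and 29.5 CPM in wild-type LPS and at 35.9, 30.1, 29.9 and 19.4 CPM in wild-type PBS. The knockout LPS group was split, with replicate 4 above every PBS library of either genotype and the other 3 within the knockout PBS range. Fosb (ENSMUSG00000003545, chr7:19302696-19310051), which makes the long-lived splice form ΔFosB as well as full-length FosB, stood at 12.99, 14.4, 21.8 and 23.9 CPM in knockout LPS and at 12.7, 11.1, 11.9 and 10.4 CPM in knockout PBS. It stood at 35.9, 19.4, 22.4 and 20.2 CPM in wild-type LPS and at 21.9, 17.2, 16.8 and 12.99 CPM in wild-type PBS. The 4 knockout PBS libraries were the lowest of the 16, though by a narrow margin.

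Junb (ENSMUSG00000052837, chr8:84974484-84978718), an AP-1 subunit that is induced by cytokines as well as by activity, stood at 43.95, 56.9, 49.5 and 85.1 CPM in knockout LPS and at 45.4, 50.7, 51.5 and 70.8 CPM in knockout PBS. It stood at 136, 97.6, 129.9 and 92.9 CPM in wild-type LPS and at 80.3, 64.3, 67.1 and 59.6 CPM in wild-type PBS. All 4 wild-type LPS libraries lay above every other library in the series. It was the only member in which a group stood above all 12 other libraries, while Fosb and Egr2 had a group beneath them, knockout PBS.

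Egr1 (ENSMUSG00000038418), a zinc-finger factor needed for lasting synaptic potentiation in the mouse dentate gyrus, stood at 224, 312, 270.2 and 471 CPM in knockout LPS and at 217, 133, 167 and 218 CPM in knockout PBS. It stood at 608, 213, 258 and 179.6 CPM in wild-type LPS and at 313, 237, 247 and 206 CPM in wild-type PBS. Every knockout LPS library was above every knockout PBS library, whereas in wild type 1 LPS library was above the PBS range and 1 was beneath it. Egr2 (ENSMUSG00000037868, chr10:67535475-67542188), a relative that also directs myelination in Schwann cells, stood at 3.96, 5.41, 8.12 and 13.3 CPM in knockout LPS and at 2.87, 1.58, 3.36 and 3.69 CPM in knockout PBS. It stood at 17.3, 9.76, 11.3 and 6.99 CPM in wild-type LPS and at 6.56, 7.30, 7.10 and 4.79 CPM in wild-type PBS. The knockout PBS libraries were the 4 lowest of the 16, and in both genotypes the LPS group reached higher than its PBS group.

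Npas4 (ENSMUSG00000045903, chr19:4984355-4990316) stood at 8.46, 16.6, 7.16 and 37.2 CPM in knockout LPS and at 16.02, 31.8, 10.4 and 29.8 CPM in knockout PBS. It stood at 76.7, 33.1, 29.8 and 17.3 CPM in wild-type LPS and at 27.9, 27.9, 26.4 and 35.1 CPM in wild-type PBS. Each group except wild-type PBS varied widely, and all groups overlapped. Nr4a1 (ENSMUSG00000023034, chr15:101254269-101274795) stood at 64.1, 79.7, 63.3 and 134 CPM in knockout LPS and at 65.1, 48.5, 78.7 and 89.3 CPM in knockout PBS. It stood at 199, 85.9, 116 and 79.04 CPM in wild-type LPS and at 99.7, 76.03, 74.6 and 78.97 CPM in wild-type PBS. Its groups overlapped too, and knockout LPS replicate 4 and wild-type LPS replicate 1 were the 2 highest libraries.

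Arc (ENSMUSG00000022602, chr15:74669083-74672570) stood at 107, 174, 113 and 441 CPM in knockout LPS and at 123, 96.1, 136 and 192 CPM in knockout PBS. It stood at 417, 199.7, 217 and 138 CPM in wild-type LPS and at 227, 215, 216 and 149 CPM in wild-type PBS. For Arc alone among the members, knockout LPS replicate 4 was the highest library, ahead of wild-type LPS replicate 1. Ier2 (ENSMUSG00000053560, chr8:84661331-84662852) stood at 4.21, 7.41, 4.36 and 13.6 CPM in knockout LPS and at 6.003, 9.68, 5.88 and 8.96 CPM in knockout PBS. It stood at 16.5, 9.42, 14.2 and 8.84 CPM in wild-type LPS and at 10.2, 8.66, 8.80 and 7.38 CPM in wild-type PBS. The knockout LPS range took in that of knockout PBS. Dusp1 (ENSMUSG00000024190, chr17:26505590-26562128), which removes phosphate from active MAP kinases and so limits the signal that induces the other members, stood at 16.1, 24.4, 19.7 and 41.6 CPM in knockout LPS and at 19.2, 20.99, 18.6 and 26.4 CPM in knockout PBS. It stood at 53.9, 28.9, 38.2 and 26.7 CPM in wild-type LPS and at 35.1, 34.02, 35.9 and 19.9 CPM in wild-type PBS. In wild-type PBS, replicate 4 was well beneath the other 3. Dusp1 shares 11 exonic bases with Ergic1.

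**Figure D2:**
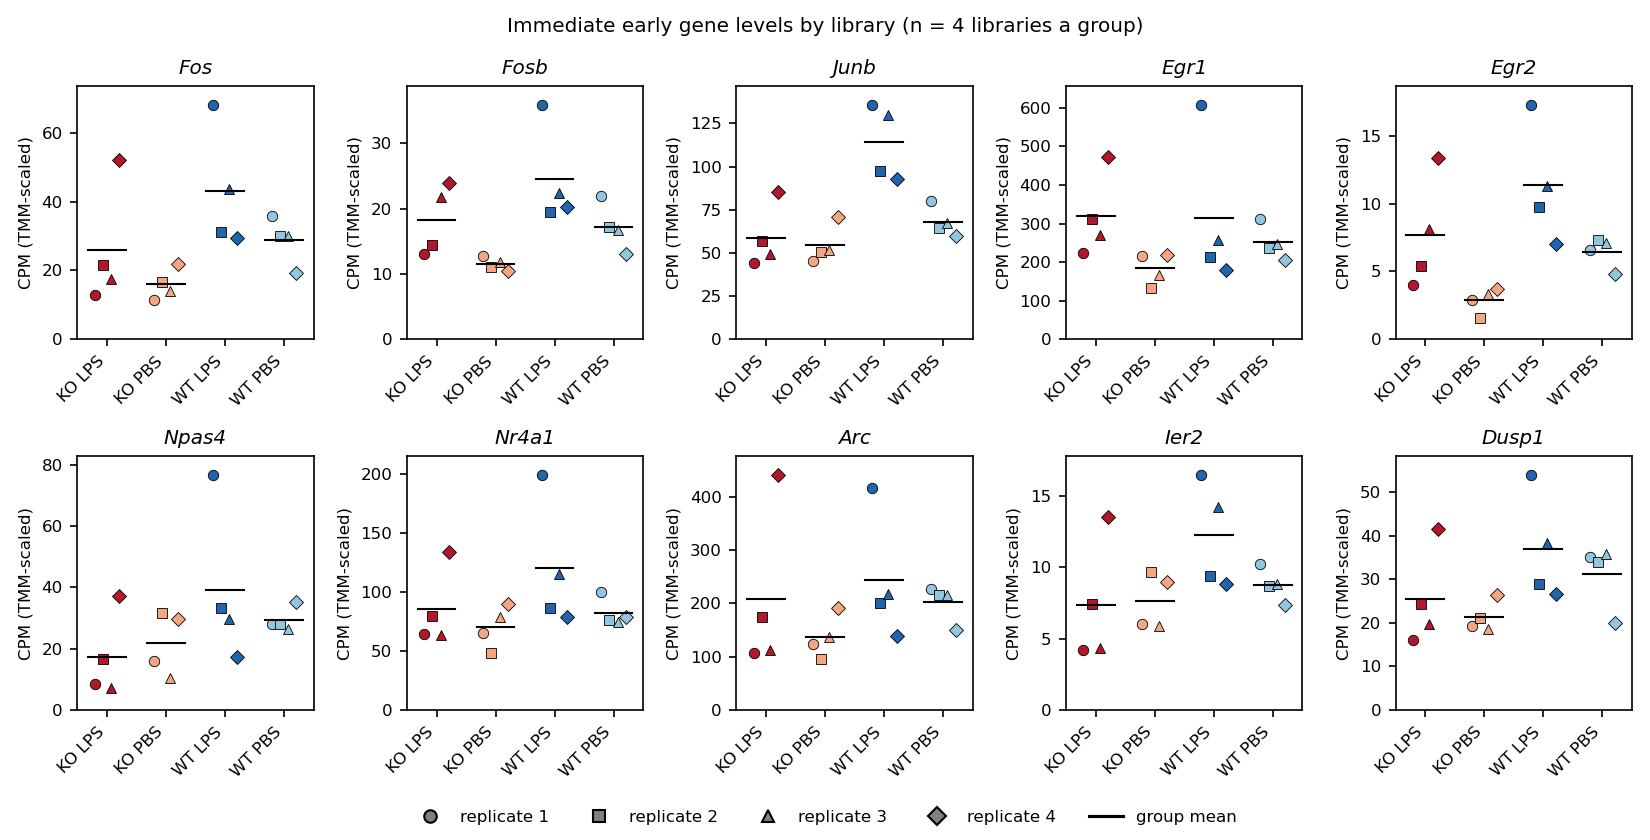
CPM of each member (vertical axis, linear from 0) in each of the 4 groups, with 1 marker per library, its shape giving the replicate number, and a line at the group mean. Knockout LPS replicate 4 (diamond) and wild-type LPS replicate 1 (circle) stand above the rest of their groups in most panels, and the Junb panel is the one in which all 4 wild-type LPS libraries lie above every other library.

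Much of the variation belonged to single libraries rather than to groups. Wild-type LPS replicate 1 was the highest of all 16 libraries in 9 of the 10 members, and knockout LPS replicate 4 in the remaining one, Arc. The mean log2 level of the 10 members, set against the wild-type PBS mean, was -0.79, -0.24, -0.51 and 0.70 in knockout LPS replicates 1 to 4 and -0.67, -0.67, -0.67 and -0.20 in knockout PBS. It was 1.16, 0.16, 0.46 and -0.10 in wild-type LPS replicates 1 to 4. The library with the highest members in wild type was thus the one without the Lcn2 rise: the score of 12 interferon and inflammatory genes was 0.22 in wild-type LPS replicate 1 and 3.67, 3.60 and 3.52 in replicates 2 to 4. The score of 12 glucocorticoid-responsive genes was -0.06 in that replicate and 1.58, 1.33 and 1.04 in the other 3. Knockout LPS replicate 4 had an inflammatory score of -0.31 and a choroid plexus score of 1.03, within the range of the other knockout libraries. Its heat shock score, over 11 genes, was the highest of the 16 libraries at 0.21, with the others at most 0.08. Its scores of pyramidal markers (-0.28) and dentate granule markers (-0.26) were the lowest of the 8 knockout libraries, and in wild-type LPS replicate 1 these scores were -0.36 and -0.27, the lowest of all 16. The score of 6 pan-neuronal markers stayed between -0.24 and 0.16 over the 16 libraries. The part of inflammation, heat shock or cell make-up in the member levels was not tested, and in whole tissue fewer active cells and less RNA per cell cannot be told apart.

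**Figure D3:**
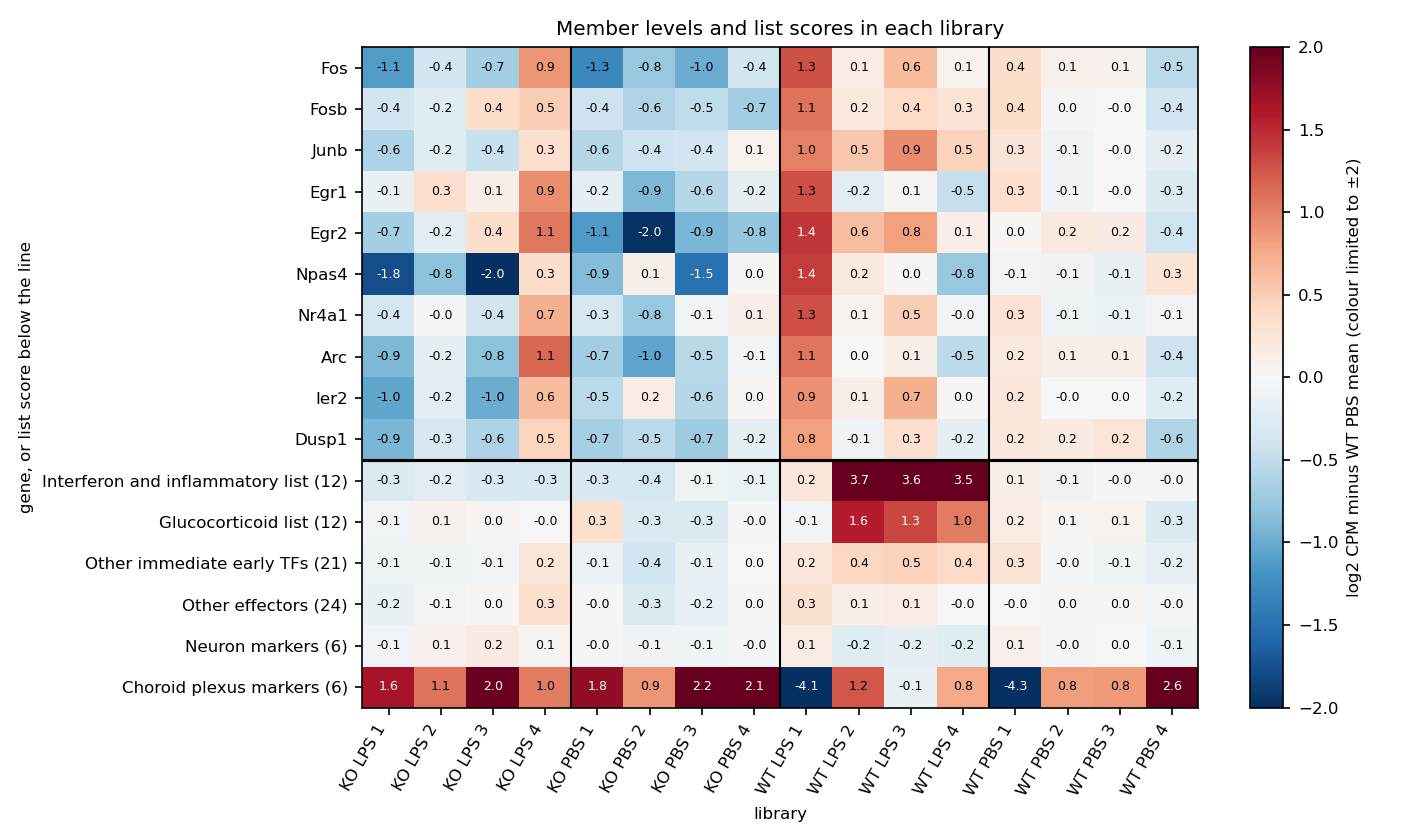
Log2 CPM minus the wild-type PBS mean for each member (upper 10 rows) and for 6 list scores (lower rows, list size in brackets) in each library (columns), with colour limited to ±2 and the values printed. The members are high in the columns of knockout LPS replicate 4 and of replicate 1 in wild-type LPS, while the inflammatory and glucocorticoid rows are high in wild-type LPS replicates 2 to 4.

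The comparison of LPS with PBS in wild type asks which members answered the challenge in mice that have Tspo. Junb rose: it averaged 114 ± 21.9 CPM in LPS libraries and 67.8 ± 8.87 CPM in PBS libraries (SD, n = 4 each), a log2 fold change of 0.75 ± 0.20 (SE; adjusted p = 0.0288, edgeR's quasi-likelihood test with Benjamini-Hochberg adjustment over all genes tested). The other 9 members did not pass. Their log2 fold changes ran from 0.24 ± 0.28 for Dusp1 (36.9 ± 12.4 CPM after LPS, 31.2 ± 7.58 CPM after PBS; adjusted p = 0.656) to 0.82 ± 0.35 for Egr2 (11.3 ± 4.35 CPM after LPS, 6.44 ± 1.14 CPM after PBS; adjusted p = 0.166). Fosb stood at 0.51 ± 0.22 (adjusted p = 0.175) and Nr4a1 at 0.54 ± 0.29 (adjusted p = 0.276). Fos was at 0.58 ± 0.38 (adjusted p = 0.379) with 43.1 ± 17.8 CPM after LPS and 28.8 ± 6.86 CPM after PBS.

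Thus 1 of 10 members was called in wild type, beside 8.57% of all genes tested (1394 of 16269), a share near that background. The log2 fold change was above 0 in 10 of 10 members, with a median of 0.49 beside 0.00 over all genes tested. The members varied together among libraries, as described below, so counts of signs here and in the comparisons that follow are not counts of independent genes. The signs in wild type rested in part on LPS replicate 1: without it the median was 0.22 and 7 of 10 were above 0, with Arc at -0.13, Egr1 at -0.21, Npas4 at -0.13 and Dusp1 at 0.00. Junb, at 0.65, still passed without it (adjusted p = 0.0369), when 3380 genes were called in all. Only Junb had groups that did not overlap, beside 8.62% of genes, and an exact permutation test of its log2 CPM (two-sided) gave p = 0.0286, the smallest that 4 against 4 libraries can give. Between the 2 wild-type libraries that share a title code across injections, Junb was at 136 CPM in LPS replicate 1 and 59.6 CPM in PBS replicate 4. That LPS replicate lacked the Lcn2 rise, and each of the other wild-type PBS replicates held more Junb than replicate 4. Every other member was also higher in the LPS library of this pair (Arc at 417 against 149 CPM, Egr1 at 608 against 206 CPM). With 1 library on each side, an LPS effect on Junb was not tested by this pair. The Junb call ended when only the 8 wild-type libraries were fitted (0.75, adjusted p = 0.0819), when PBS replicates 2 and 3 were summed as 1 library (0.74, adjusted p = 0.0756), and without PBS replicate 2, 3 or 4 or LPS replicate 3 (0.73, 0.75, 0.69 and 0.69, adjusted p = 0.0807, 0.0752, 0.0588 and 0.0897). Junb shares 173 exonic bases with Prdx2 on the opposite strand, and the sources do not state whether the counting used strand. The score of 6 oligodendrocyte markers was -1.74 to -0.64 in wild-type LPS and -0.32 to 0.13 in wild-type PBS. That of 6 leukocyte markers, of which 5 were tested, was 0.56 to 2.38 in wild-type LPS and -0.08 to 0.07 in wild-type PBS. Of 6 microglial markers 1 rose (C1qa, by 1.38) and 1 fell (P2ry12, at -1.35), and of 6 astrocyte markers 2 rose (Gfap, by 1.68, and Aldh1l1, by 0.55). Of 6 endothelial markers 2 fell (Flt1, at -0.68, and Tek, at -0.57), while 4 lay above 0. The part of any of these cell types in the Junb rise was not tested. Prdx2 itself had a log2 fold change of -0.10 ± 0.05 in this comparison (adjusted p = 0.252).

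In the knockout, no member passed when LPS was compared with PBS. Egr2 had the largest log2 fold change, 1.42 ± 0.36 (7.70 ± 4.12 CPM after LPS, 2.87 ± 0.928 CPM after PBS; adjusted p = 0.703, unadjusted p = 0.00145). Egr1 followed with 0.80 ± 0.33 (319 ± 107 CPM after LPS, 183 ± 41.4 CPM after PBS) and Fosb with 0.66 ± 0.23 (18.3 ± 5.39 CPM after LPS, 11.53 ± 0.971 CPM after PBS), each at an adjusted p of 0.703. Fos was at 0.71 ± 0.39 (adjusted p = 0.704) and Arc at 0.61 ± 0.42 (adjusted p = 0.721). Junb was at 0.11 ± 0.20, with 58.9 ± 18.3 CPM after LPS and 54.6 ± 11.2 CPM after PBS (adjusted p = 0.893). Npas4 and Ier2 had values beneath 0, at -0.34 ± 0.52 and -0.05 ± 0.33 (adjusted p = 0.874 and 0.976).

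edgeR called 0 of 16269 genes in this comparison (0%), with 1120 at an unadjusted p below 0.05 and a smallest adjusted p of 0.703, and DESeq2 called 3 genes and 0 members, so nearly no gene of the table, member or not, was called. Fosb, Egr1 and Egr2 had LPS and PBS libraries that did not overlap, 3 of 10 members beside 6.55% of genes. Each had an exact permutation p of 0.0286, which groups of this size without overlap always give, so it adds nothing to the lack of overlap. The median log2 fold change of the members was 0.44 beside -0.01 over all genes, and 8 of 10 were above 0. Without LPS replicate 4 the median was -0.04 and 4 of 10 were above 0, with Egr2 at 1.02, Egr1 at 0.55, Fosb at 0.51 and Fos at 0.12. The median was 0.40, with 8 of 10 above 0, when the library labelled knockout PBS replicate 1 was left out.

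Comparing the knockout with wild type under PBS asks whether the genotypes differed without the challenge. No member passed, and all 10 had log2 fold changes beneath 0. Egr2 had the largest, -1.16 ± 0.36 (2.87 ± 0.928 CPM in knockout, 6.44 ± 1.14 CPM in wild type; adjusted p = 0.918). Fos was at -0.86 ± 0.39 (15.95 ± 4.38 CPM in knockout, 28.8 ± 6.86 CPM in wild type) and Fosb at -0.58 ± 0.23 (11.53 ± 0.971 CPM in knockout, 17.2 ± 3.65 CPM in wild type), both with an adjusted p of 0.918. The smallest was that of Ier2, -0.20 ± 0.33 (adjusted p = 0.947).

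In 7 of the 14 marker lists every tested gene lay on 1 side of 0 as well, though no marker passed; 4 of the 7 follow, and the others were oligodendrocyte and leukocyte (beneath 0) and ependymal (above 0). All 6 endothelial markers were beneath 0 (median -0.36, score -0.41 to -0.19 in knockout and -0.09 to 0.23 in wild type), as were all 5 red cell markers (median -2.15, score -4.11 to -0.70 in knockout and -2.30 to 1.44 in wild type). All 6 dentate granule markers were above 0 (median 0.32, score 0.13 to 0.59 in knockout and -0.22 to 0.36 in wild type), as were all 6 choroid plexus markers (median 0.49, score 0.88 to 2.21 in knockout and -4.32 to 2.64 in wild type). Their part in the member values was not tested.

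In this comparison 6 genes of the table were called (0.0369%). Fosb and Egr2 had genotypes that did not overlap, 2 of 10 members beside 3.28% of genes. The exact permutation p was 0.0286 for each, the value that a lack of overlap always gives here. The median log2 fold change of the members was -0.50 beside 0.01 over all genes. Leaving out the library labelled knockout PBS replicate 1, whose Tspo level goes against its label, gave -0.51, with 0 of 10 above 0. Without the 3 libraries that stood apart in choroid plexus or in thalamic and cerebellar markers it was -0.40, and Nr4a1, at 0.02, was the 1 member above 0.

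Under LPS, Junb was lower in the knockout: 58.9 ± 18.3 CPM in knockout and 114 ± 21.9 CPM in wild type (SD, n = 4 each), a log2 fold change of -0.95 ± 0.20 (adjusted p = 0.00849, edgeR). Npas4 was at -1.18 ± 0.52 (17.3 ± 13.9 CPM in knockout, 39.3 ± 25.9 CPM in wild type; adjusted p = 0.148) and Ier2 at -0.73 ± 0.33 (7.39 ± 4.38 CPM in knockout, 12.2 ± 3.71 CPM in wild type; adjusted p = 0.155). Fos was at -0.73 ± 0.38 (26.0 ± 17.8 CPM in knockout, 43.1 ± 17.8 CPM in wild type; adjusted p = 0.222). Arc and Egr1 were close to equal in the means, at -0.22 ± 0.41 and 0.02 ± 0.33 (adjusted p = 0.769 and 0.976). This depended on single libraries: without knockout LPS replicate 4, Arc was at -0.89 and Egr1 at -0.23 (adjusted p = 0.107 and 0.721). The remaining 4, Egr2, Dusp1, Nr4a1 and Fosb, lay between -0.56 and -0.42.

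So 1 of 10 members was called, beside 11.9% of all genes tested (1935 of 16269), again near that background, and 1 of 10 had genotypes that did not overlap, beside 14.3% of genes. For Junb the exact permutation p was 0.0286, the value that a lack of overlap always gives here. Knockout LPS replicate 4, with its high members, weighed on this comparison: without it 5 members were called, Npas4 at -1.87 (adjusted p = 0.0349), Fos at -1.32 (adjusted p = 0.0242), Ier2 at -1.20 (adjusted p = 0.0209), Junb at -1.19 (adjusted p = 0.0113) and Dusp1 at -0.88 (adjusted p = 0.0491), with 1323 genes called in all. That library was singled out after its high members were seen, so these 5 calls are no separate support for a lower level in the knockout. Without wild-type LPS replicate 1 only Junb was called, at -0.86 (adjusted p = 0.00777), with 4005 genes called in all, and Arc and Egr1 stood at 0.17 and 0.56. Of the alternatives run, the Junb call ended in 1, a fit of only the 8 LPS libraries (-0.96, adjusted p = 0.0519). Prdx2 stood at 0.09 ± 0.05 (adjusted p = 0.27). The inflammatory score ran from -0.31 to -0.23 in the knockout LPS libraries and from 0.22 to 3.67 in those of wild type. All 12 genes of that list, chosen with earlier results of these data known, were called lower in the knockout. Of 6 endothelial markers 3 were called lower (Pecam1, Cldn5 and Esam; score -0.55 to -0.14 in knockout and -0.19 to 0.21 in wild type). In that list 2 of the 6 lay above 0 without passing, the highest at 0.34. Of 5 leukocyte markers tested 3 were called lower (S100a8, S100a9 and Ly6c2; score over all 6 listed -0.57 to 0.71 in knockout and 0.56 to 2.38 in wild type), with S100a8 and Ngp at 0 in at least 1 knockout LPS library. Of 6 oligodendrocyte markers 5 were called higher (score -0.23 to -0.12 in knockout and -1.74 to -0.64 in wild type), and of 6 interneuron markers 3 were called higher (Slc32a1, Gad2 and Gad1; score -0.02 to 0.21 in knockout and -0.47 to 0.09 in wild type). Only 4 of the 6 interneuron markers lay above 0, and the lowest was at -0.46. Of 6 microglial markers 2 were called lower (C1qa at -1.36 and Aif1 at -0.74) and 1 higher (P2ry12 at 1.47). Of 6 astrocyte markers 2 were called lower (Gfap at -1.74 and Aldh1l1 at -0.47) and 1 higher (Gja1 at 0.37). The part of inflammation or of any of these cell types in the Junb difference was not tested. Wild-type LPS replicate 1, where the inflammatory score was 0.22, had Junb at 136 CPM, but it was also the highest of the 16 libraries in 9 of the 10 members. What set the Junb level of that library was not tested.

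**Figure D4:**
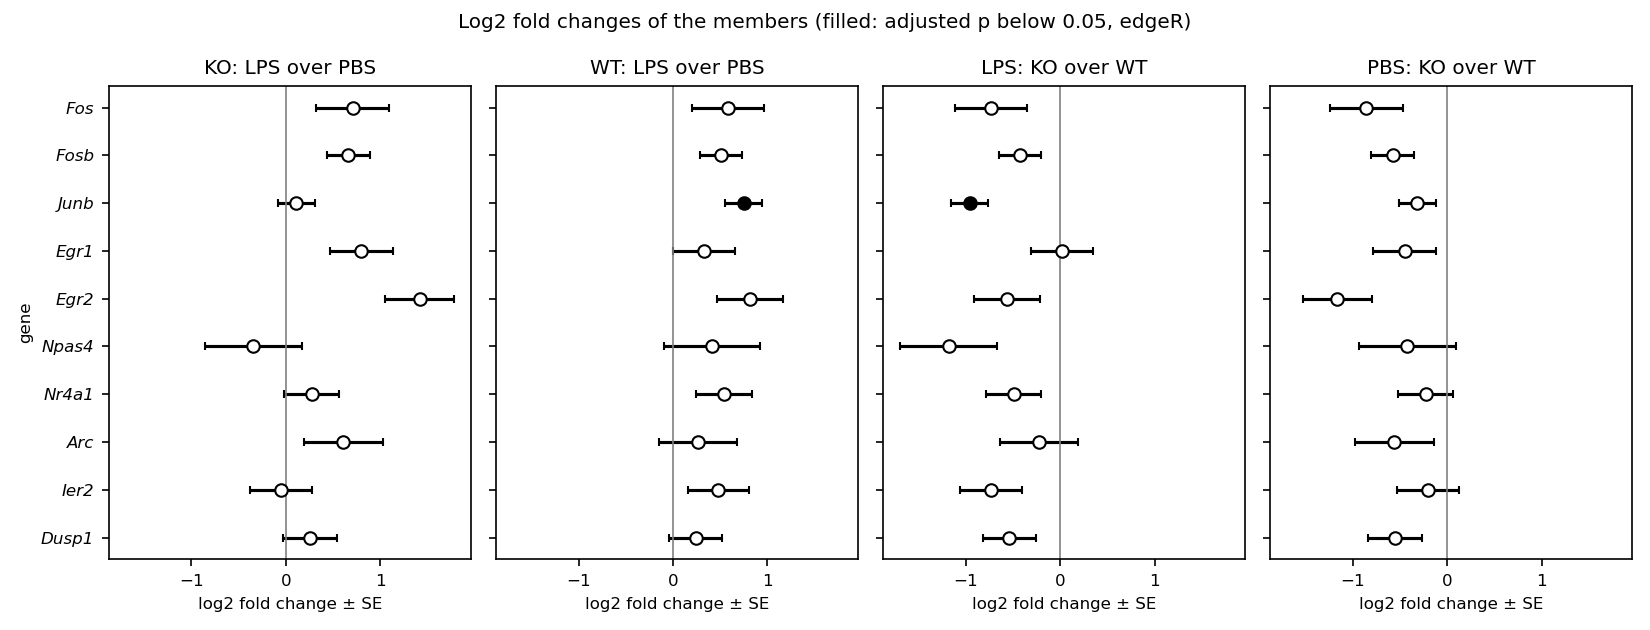
Log2 fold changes of the 10 members (rows) with their SE in 4 comparisons (panels, all on the same horizontal scale), filled where the adjusted p was below 0.05. The filled points are Junb in wild type (LPS over PBS, 0.75) and Junb under LPS (knockout over wild type, -0.95).

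The interaction asks whether the LPS effect itself differed between genotypes, knockout minus wild type. For Junb it was -0.64 ± 0.28, which did not pass (adjusted p = 0.195), so a different Junb response in the 2 genotypes was not shown by this test. None of the other 9 members passed either (adjusted p from 0.509 to 0.988), beside 1.15% of all genes (187). Egr1 was at 0.47 ± 0.47 (adjusted p = 0.584). Without wild-type LPS replicate 1 it was called at 1.01 (adjusted p = 0.0468), with 2655 genes called in all.

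The members deviated together among libraries of a group. After group means were subtracted from log2 CPM, all 45 pairs had a Pearson r above 0 over the 16 libraries, with a median of 0.776, and 39 of 45 passed a two-sided permutation test within groups (100000 resamples, Benjamini-Hochberg adjustment over the 45 pairs), against 32 of 45 for Spearman's rho. Over all 132332046 pairs of tested genes, treated the same way, 49.9% had an r above 0, 3.16% had an r of at least 0.642, the lowest among the 39 pairs, and 0.709% had an r of at least 0.776. These shares describe the background and are no test of the members. The closest pair was Fos and Dusp1 (r = 0.965, rho = 0.941, adjusted permutation p = 0.00075 for r), with r = 0.945 when the 2 libraries farthest from the median of Fos were left out. The loosest was Fosb and Npas4 (r = 0.366, adjusted permutation p = 0.279, rho = 0.147), with r = -0.185 without the 2 libraries farthest from the median of Fosb. By gene, the median r with the other 9 was highest for Arc (0.867) and Junb (0.843) and lowest for Fosb (0.642).

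Much of this rested on few libraries. For each pair, r was also taken without the 2 libraries farthest from the median of 1 of its genes, the one listed first. The median r was then 0.632, a value that depends on the order of listing. With the highest library of each LPS group left out (replicate 1 in wild type, replicate 4 in the knockout), an alternative chosen after the values were seen, 13 of 45 pairs passed, 43 had an r above 0 and the median was 0.518, a value that 8.07% of all gene pairs then reached. Without the 4 wild-type LPS libraries 18 passed, with a median of 0.743. The counts of 1 library are scaled together, and its genes share its depth and its dissection.

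Junb and Egr2 were set against Arc in each library. These 2 ratios of CPM, of 5 computed, were chosen after the values were seen and so are given without a test. The ratio of Junb to Arc was 0.326, 0.489, 0.598 and 0.672 in wild-type LPS replicates 1 to 4 and 0.353, 0.299, 0.311 and 0.4 in wild-type PBS. LPS replicate 1 lay within the wild-type PBS range, and the other 3 lay above it. In the knockout the ratio ran from 0.193 to 0.438 after LPS and from 0.368 to 0.527 after PBS. Its highest knockout value, in PBS replicate 2, was above that of wild-type LPS replicate 2. A link between this ratio and inflammation was not tested. The ratio of Egr2 to Arc ran from 0.0302 to 0.0718 in knockout LPS and from 0.0164 to 0.0247 in knockout PBS, and from 0.0415 to 0.0521 in wild-type LPS and from 0.0289 to 0.0340 in wild-type PBS. For this ratio the LPS and PBS libraries did not overlap in either genotype.

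**Figure D5:**
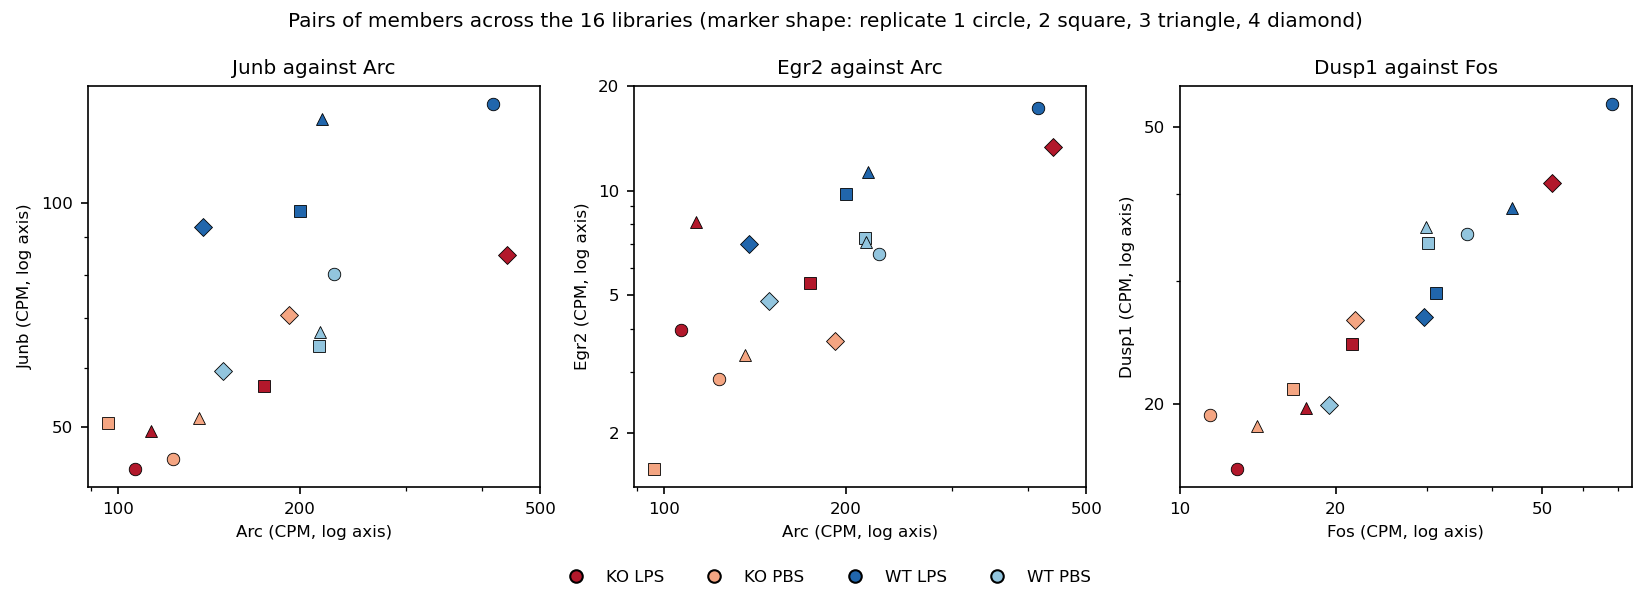
CPM of Junb against Arc, Egr2 against Arc and Dusp1 against Fos in the 16 libraries, on log axes, with colour for the group and shape for the replicate number. Wild-type LPS replicates 2 to 4 lie above the other libraries of like Arc level in the first panel, and Fos and Dusp1 rise together through all groups (r = 0.965 after group means were subtracted).

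Among tested genes outside the 10, those whose log2 CPM followed the mean of the members most closely over the 16 libraries were Camk2g (Pearson r = 0.902), Borcs5 (0.883), Dscam (0.875), Trib1 (0.872) and Ccn1 (0.871). Cd34 (0.870), Lmna (0.860), Vwa5b2 (0.836), Spag5 (0.833) and Plec (0.828) came next. These are the 10 highest r values among named genes with a mean log2 CPM of at least 1, given as a description with no p. The libraries they share also share depth and dissection. Each of them was highest in wild-type LPS replicate 1, except Trib1, which was highest in knockout LPS replicate 4. Camk2g ranged from 179 to 292 CPM and Ccn1 from 3.04 to 17.2 CPM.

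Other immediate early transcription factors, a list of 21, were counted against the same backgrounds as the members (values are log2 fold changes with their SE here and for the lists that follow). In wild type, LPS against PBS, 2 of 21 rose and 0 fell, beside 8.57% of all genes called: Maff, a small Maf factor, by 2.95 ± 0.59 (adjusted p = 0.00881) and Fosl1, the AP-1 subunit Fra-1, by 1.37 ± 0.35 (adjusted p = 0.0251). Under LPS 5 of the 21 were lower in the knockout than in wild type and 0 higher, beside 11.9% of all genes called in either direction, among them Maff (-3.14 ± 0.60, adjusted p = 0.0058), Btg2, an antiproliferative factor (-1.18 ± 0.25, adjusted p = 0.00984), Myc (-0.77 ± 0.17, adjusted p = 0.0126) and Fosl1 (-1.36 ± 0.34, adjusted p = 0.0207). The fifth, named after its values were seen, was Klf6 (-0.34 ± 0.09, adjusted p = 0.03). In the knockout, LPS against PBS, 0 passed; Egr4 and Egr3, relatives of Egr1, had the largest values, 0.56 ± 0.21 and 0.54 ± 0.21 (adjusted p = 0.703 each). Under PBS 0 passed, with Klf2 at -0.72 ± 0.28 and Nr4a2 at -0.60 ± 0.24 (adjusted p = 0.918 each). The median of the 21 was 0.21 in wild type after LPS and -0.25 for knockout over wild type under LPS, beside 0.00 and -0.00 over all genes.

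Of 24 other activity-induced effectors, 1 rose in wild type after LPS: Ier3, a regulator of cell survival (0.97 ± 0.25, adjusted p = 0.0279). Under LPS 4 were lower in the knockout, among them Gadd45g (-0.43 ± 0.08, adjusted p = 0.00618) and Gadd45b (-0.41 ± 0.11, adjusted p = 0.0265), which take part in DNA repair and demethylation, and Ier3 (-0.96 ± 0.25, adjusted p = 0.0241). The remaining one, also named after its values were seen, was Zfp36, an RNA-binding protein that speeds mRNA decay (-0.85 ± 0.25, adjusted p = 0.0408). Inhba, the subunit of activin A, was higher (0.99 ± 0.28, adjusted p = 0.0335). Of 14 MAP kinase phosphatases and feedback inhibitors, relatives of Dusp1 in role, 0 passed in any comparison; Dusp5 was at 0.36 ± 0.11 in wild type after LPS (adjusted p = 0.0543). Of 34 receptors, kinases and DNA-binding factors upstream of the members, 2 rose in wild type after LPS, Grin1, the obligate NMDA receptor subunit (0.21 ± 0.05, adjusted p = 0.0204), and Elk1, an SRF partner (0.21 ± 0.06, adjusted p = 0.0386). Both were lower in the knockout under LPS (-0.16 ± 0.05 and -0.21 ± 0.06, adjusted p = 0.044 and 0.0357). Of 12 partners and corepressors of the member proteins 11 were tested and 0 passed in any comparison.

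Other inducible programmes were counted in the same way. Their lists were chosen with earlier results of these data known, so the counts are descriptions and no test. Of 12 glucocorticoid-responsive genes 9 rose in wild type after LPS, with a median of 1.02, among them Cdkn1a, a cell-cycle inhibitor (2.20 ± 0.38, adjusted p = 0.00455), and the metallothionein Mt1 (1.56 ± 0.29, adjusted p = 0.00627), and 9 were lower in the knockout under LPS. All 12 interferon and inflammatory genes rose in wild type after LPS, with a median of 2.54, and all 12 were lower in the knockout under LPS. Of 11 heat shock genes 1 rose, Hspb1 (0.75 ± 0.21, adjusted p = 0.0406), and 3 fell in wild type after LPS, among them Hsph1 (-0.62 ± 0.14, adjusted p = 0.0152). Of 6 pan-neuronal markers 0 passed in wild type after LPS or between genotypes under LPS, and of 6 interneuron markers 0 passed in wild type after LPS and 3 were higher in the knockout under LPS (Slc32a1 0.48 ± 0.12, Gad2 0.42 ± 0.13 and Gad1 0.29 ± 0.07, adjusted p = 0.0195, 0.0468 and 0.0209). Between genotypes under LPS, 4 of the 6 interneuron markers lay above 0, and the lowest was at -0.46. Of 6 oligodendrocyte markers 5 fell in wild type after LPS and 5 were higher in the knockout under LPS. The part of these other programmes in the member values was not tested.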

How the data were processed

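The deposited table held raw counts per gene, whole numbers in 16 columns that were matched to samples by title. The submitters' processing notes name Salmon 1.9.0, MultiQC 1.13, DESeq and DESeq2 without their roles, and the authors' genome build and use of strand are not given in the sources used here. RNA was extracted with an RNeasy kit and libraries were made with a NEBNext Ultra kit, per the labels' protocols. Ensembl identifiers were named with GENCODE M21, which named 19344 of 19449, and upstream windows came from RefSeq (GRCm38.p6).

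Counts were filtered with filterByExpr (16269 genes left, holding 99.97% of counts), scaled by TMM and fitted in 1 edgeR 4.0.16 quasi-likelihood model over the 4 groups in R 4.3.3 (common biological coefficient of variation 0.177), with contrasts for LPS against PBS in each genotype, knockout against wild type under each injection, and the interaction. Every adjusted p for a gene is from that edgeR test with Benjamini-Hochberg adjustment over all genes tested, called below 0.05. Log2 CPM used a prior count of 2. Single values were also compared by exact permutation over libraries, without adjustment for the number of members and comparisons. The tests were checked on simulated data in which every gene had a coefficient of variation of 0.177 and no library stood apart. Among the members this coefficient ran from 0.19 (Junb) to 0.49 (Npas4), so the check does not cover their spread. Members and lists were chosen with earlier results of these data known. Beside the members, up to 4 called genes per list and comparison, by smallest p, and the 2 largest changes of a list without calls are named. Alternatives were DESeq2 1.42.0, RLE scaling, other filters, a replicate block, subsets of libraries and each library left out. Counts between 30198619 and 50009041 per library set the precision.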

Additional observations from a re-analysis of the deposited data

Results flagged for a closer look

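In 2 of 40 sets of 4 libraries (10 members in 4 groups), 1 library stood far from the other 3 by Dixon's test, and chance gives about 1 set in 20. Both lie in wild-type PBS replicate 4. Arc, the synaptic effector, was at 149.0 CPM there, while the other 3 wild-type PBS libraries stood between 214.8 and 227.2 CPM. Dusp1, the MAP kinase phosphatase, was at 19.92 CPM there, while the other 3 stood between 34.02 and 35.89 CPM. Replicate 4 also differed from the other wild-type PBS libraries in its title code, and its choroid plexus score was 2.64.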

How the results depend on the processing

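Of 1240 alternative values of the 50 member log2 fold changes, 1196 had the sign reported and 44, in 17 of the 50, did not. The replicate block was fitted although the numbers did not pair the libraries (correlation of same-numbered deviations -0.222 to 0.364). Under it Junb was at 0.75 in wild type after LPS (adjusted p = 0.0499, edgeR) and -0.98 for knockout over wild type under LPS (adjusted p = 0.0181), and 3 genes were called for genotype under PBS and 0 for the interaction. With only the 8 libraries compared, 0 members were called in either comparison where Junb had passed, where it stood at 0.75 and -0.96, and 0 genes were called for wild-type LPS and 438 for genotype under LPS. Wild-type PBS replicates 2 and 3 were the closest pair (chi-square per degree of freedom 3.78, against at least 12.3 for other pairs within a group). The labels do not say whether they are separate animals, so this group may hold fewer than 4 independent samples. Summed, the pair gave 0 members and 670 genes in wild type, with Junb at 0.74, 1 gene for genotype under PBS, 0 for the interaction, and a Dusp1 interaction of -0.046. DESeq2 called 2096 genes in wild type, 3 in the knockout, 17 for genotype under PBS and 1278 for the interaction. The interaction count was 63 with RLE factors, 39 without a filter and 42 with a CPM filter.

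Without wild-type LPS replicate 1 and the library labelled knockout PBS replicate 1, a choice made after seeing the data, 3271 genes were called in wild type, 3907 for genotype under LPS and 2400 for the interaction, with 1 member, Egr1, in the last. Arc, Egr1 and Npas4 in wild type were then at -0.13, -0.21 and -0.13, Arc for genotype under LPS at 0.17 and the Nr4a1 interaction at 0.057. Without the 3 libraries that stood apart in choroid plexus or thalamic markers, also chosen after seeing the data, the counts were 3215, 4205 and 2201. Arc, Egr1 and Npas4 in wild type were at -0.055, -0.079 and -0.15, Ier2 in the knockout at 0.10, Nr4a1 for genotype under PBS at 0.017, Arc for genotype under LPS at 0.17 and the Npas4 interaction at 0.045. The number of correlated pairs was 18 without wild-type LPS and 13 without the 2 highest libraries.

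Leaving out each library in turn gave 538 to 3380 genes in wild type, 0 to 1 in the knockout, 1 to 9 for genotype under PBS, 858 to 4005 for genotype under LPS and 0 to 2655 for the interaction. Members called ran from 0 to 1 in wild type, 1 to 5 for genotype under LPS and 0 to 1 for the interaction, and were 0 otherwise. Junb ran from 0.65 to 0.85 in wild type and from -1.19 to -0.84 for genotype under LPS. In the knockout, values that changed sign were Arc (-0.055 to 0.83), Dusp1 (-0.082 to 0.42), Ier2 (-0.51 to 0.15), Junb (-0.12 to 0.26) and Nr4a1 (-0.025 to 0.41). In wild type they were Arc (-0.13 to 0.46), Egr1 (-0.21 to 0.52) and Npas4 (-0.13 to 0.66), and for genotype under LPS Arc (-0.89 to 0.17) and Egr1 (-0.23 to 0.56). In the interaction they were Arc (-0.33 to 0.73), Dusp1 (-0.33 to 0.26), Fos (-0.46 to 0.44), Fosb (-0.0075 to 0.40) and Nr4a1 (-0.57 to 0.093). The cause of these shifts was not tested.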
